A study of Bos taurus with 2 samples.

Results

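The genes described here are the actins, the actin-like proteins and a set of proteins that bind actin, as measured in bull sperm RNA. They were taken by gene name from the array's annotation: the 6 conventional actins, all names starting with ACTL7, ACTL8, ACTL9 or CAPZ, all names in which ACTR, ACTRT, ACTN, ARPC, CFL or PFN is directly followed by a digit, and DSTN, GSN, SCIN and VIL1. This gave 45 of the 32429 gene names on the array, with 106 of its 51282 probes. The measurements were total RNA of spermatozoa from HF crossbred breeding bulls, all male, hybridised to 1-colour arrays of 60-base probes. One group was labelled high and the other low for fertility, with 1 array each, and the labels used here do not say how many bulls gave RNA to either array. A single array per group leaves the spread between bulls unmeasured, so differences carry no p-value and describe these 2 arrays alone.

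Actin is a globular protein that polymerises into filaments, and a cell controls where filaments form through proteins that nucleate, branch, cap, cut or bundle them. Ejaculated sperm carry out little transcription, and much of their RNA is left over from spermatids, in which actin and actin-like proteins hold the acrosome to the nucleus and line the perinuclear theca, the rigid shell around the sperm nucleus. Several actin-family genes, among them ACTL7A, ACTL7B, ACTL9, ACTRT1, ACTRT2, CAPZA3, PFN3 and PFN4, are known in mammals as testis or sperm forms. The labels state no purpose beyond the comparison of the fertility groups.

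Of the 45 genes, 27 had at least 1 probe well above background on both arrays, 1 (ACTA1) had such a probe on the high-fertile array only, and 17 had none on either array; below, a gene with no probe well above background is called not detected. Among the 27, 1 gene, ACTL7B, was at least 2-fold higher on the high-fertile array, where 1.88% of all 11619 genes measured were at least 2-fold higher, and 1 gene, PFN3, was at least 2-fold lower, where 2.44% of all genes were. Counts of 1 of 27 do not set the actin genes apart from these shares. The next largest difference was 0.89 on the log2 scale, in ACTR3B, a relative of the Arp2/3 subunit ACTR3.

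The probes behind ACTL7B and PFN3 are shown first, with that of ACTL7A for comparison. All coordinates are those of the array's annotation on build HGSC Btau_3.1. No genome or annotation of this build was used here, so the exon was not determined. ACTL7B lies next to ACTL7A on chromosome 8, and 4840 bases separate their probes, which lie on opposite strands at chr8:103518220-103518279 (minus strand) and chr8:103523120-103523179 (plus strand). Lined up without gaps, 36 of the 60 bases of the probes are identical. The 24 bases that differ are in capitals.
ACTL7B: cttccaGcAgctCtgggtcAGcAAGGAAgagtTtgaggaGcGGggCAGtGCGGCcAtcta
ACTL7A: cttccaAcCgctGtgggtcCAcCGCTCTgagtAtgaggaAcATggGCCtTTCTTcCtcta

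The PFN3 probe lies at chr7:38207270-38207329 on the minus strand and is shown because it alone carries the PFN3 difference. It has no part that needs marking and stands in lower case throughout.
PFN3: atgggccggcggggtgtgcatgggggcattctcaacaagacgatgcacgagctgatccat

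By gene, 60% of the 45 names were measured on both arrays, against 36.4% of all gene names. By probe the shares were closer. Of the 106 probes, the high-fertile array had 36 (34.0%) well above background and the low-fertile array 39 (36.8%), against 31.7% and 31.5% of all probes, and 35 were so on both. The lowest signals well above background were 22.6 (high-fertile) and 30.3 (low-fertile), the 75th percentile of the probes measured on both was 148.6 and 186.3, and no spot was saturated. Differences are log2 values, high-fertile minus low-fertile, after each array was divided by its 75th percentile, and a gene's value is the mean over its probes measured on both arrays. Where a pair of signals is given, the high-fertile array comes first. Most genes rested on few spots: 97 of the 106 probes had 1 spot, and 21 of the 27 measured genes had 1 measured probe. Where a probe had 2 spots, the SD between them in the difference was 0.28 over 3038 such probes of the whole array.

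**Figure D1:**
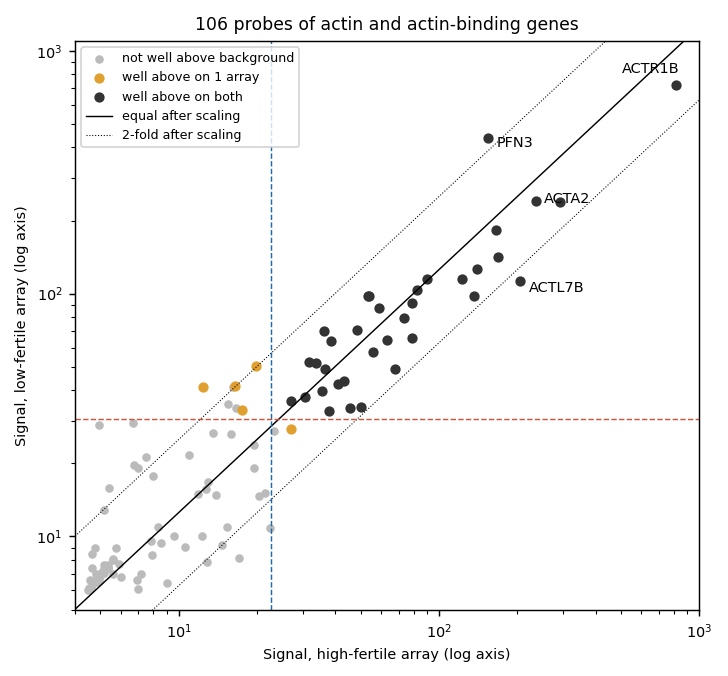
Background-subtracted signal of each of the 106 probes on the high-fertile array (horizontal, log axis) and the low-fertile array (vertical, log axis). The solid line marks equal signals after scaling, the dotted lines 2-fold, and the dashed lines the lowest signals well above background, 22.6 and 30.3. Of the probes well above background on both arrays, those of PFN3 and ACTL7B lie outside the dotted lines.

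The 27 genes had a median difference of 0.27, against -0.00032 over all 11619 genes, and 17 of them (63.0%) were above 0, against 49.9% of all genes. Scaling to 7 spike-in probes instead moved the median of all genes to -0.60 and left 14.8% of the 27 above 0, against 7.15% of all genes, so signs given below hold for the percentile scaling. This scaling shifts every gene by 1 constant, so it leaves the distance of 0.27 between the medians of the 27 and of all genes as it was. That distance was 0.12 after normexp correction and 0.074 with no filter on dim probes. With a stricter filter, which kept probes at 4 or more times the lowest measured signal, it was 0.38 over the 7 actin genes left. The middle of the distribution ran from -0.19 to 0.49 (quartiles), compared with -0.25 to 0.24 for all genes, and 19 of the 27 (70.4%) lay within 0.5 of 0, compared with 78.3%. No test bears on these figures, and nothing particular to actin genes can be read from them. In bulk RNA, fewer cells of a type and less RNA per cell cannot be told apart.

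**Figure D2:**
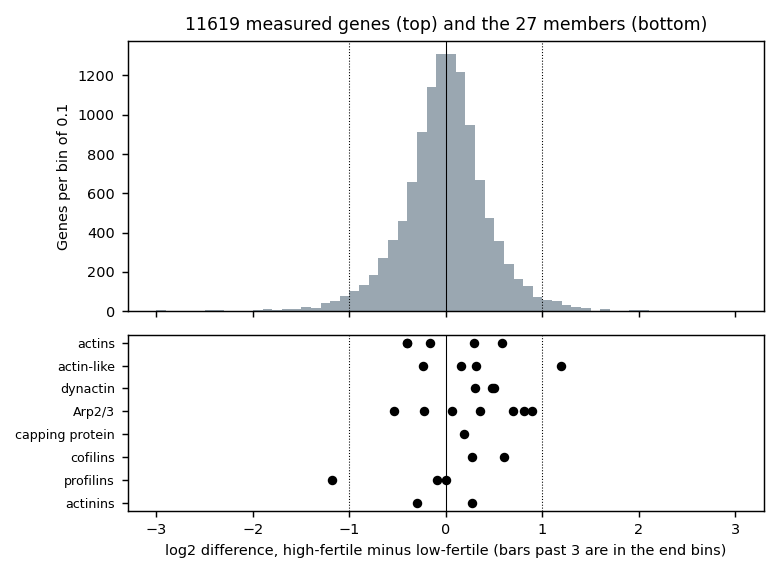
Top, the log2 difference of the 11619 genes measured on both arrays, in bins of 0.1, with values past 3 in the end bins. Bottom, the same axis for the 27 actin and actin-binding genes, 1 point each, by role; the dotted lines mark 2-fold. One point lies beyond each dotted line, an actin-like gene on the right and a profilin on the left.

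Among the testis actin-like genes, 4 of 6 were measured on both arrays. ACTL7B, which in mice is needed for spermatids to mature, had a 2-spot probe with signals of 207.9 and 203.6 on the high-fertile array and 109.6 and 116.7 on the low-fertile array. Both high-fertile spots were above both low-fertile spots, and the spots gave differences of 1.25 and 1.13. The gene's difference was 1.19, or 2.28-fold, with an error of 0.16 propagated from the scanner software's estimate for each spot, which covers the measurement of a spot and not the spread between bulls. Of all 11619 genes, it ranked 113th from the highest. The size depended on the correction applied to the signals, with 0.80 after normexp background correction and 0.59 after spike-in scaling.

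ACTL7A, the partner gene that anchors the acrosome in mouse and human sperm, gave 35.5 on the high-fertile array and 39.9 on the low-fertile one, a difference of 0.16 with an error of 0.41. Its signals were close to the lowest counted as measured, and its error spans 0. The pair is close together in the genome and similar in sequence, but only the ACTL7B probe passed 2-fold. ACTRT2, an actin-related protein of the perinuclear theca, read 43.0 and 43.5, a difference of 0.31. ACTL8, an actin-like gene known mainly from human testis and tumours, read 59.1 and 87.3, a difference of -0.24. Neither exceeded its error of 0.34 and 0.25. After spike-in scaling ACTL7B alone of the 4 remained above 0. ACTL9 and ACTRT1, the other perinuclear theca members, were detected on neither array.

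The conventional actins had no common sign. Of the 6, 5 were measured on both arrays, 2 of them above 0 and 3 below, and all 5 were below 0 after spike-in scaling. ACTA2, the actin of smooth muscle, had 1 probe with spots of 239.2 and 231.7 on the high-fertile array and 218.3 and 267.0 on the low-fertile one. Before scaling the spots of the 2 arrays overlap. After scaling both spots were higher on the high-fertile array, by 0.46 and 0.12, and the difference was 0.29 with an error of 0.15.

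ACTC1, the actin of heart muscle, had a 2-spot probe reading 182.8 and 156.0 on the high-fertile array and 159.5 and 126.6 on the low-fertile array, which gave 0.58 with an error of 0.16. Its second probe went the other way: it was not well above background on the high-fertile array (16.5) and measured at 41.8 on the other, at least 1.48-fold lower on the former. This bound sets the bright signal against the higher of the dim probe's own signal and the lowest signal well above background on its array, after scaling. Here and below, the bound takes no account of the errors of the signals. The probes start at base 1200 and base 1273 of the transcript, so they disagree within a short stretch of the same gene.

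ACTB, the cytoplasmic beta-actin often used as a reference gene, was measured by 2 of its 4 probes. The probe starting at base 320 read 53.4 and 97.8, a difference of -0.54, and the probe starting at base 1780 read 73.6 and 79.3, a difference of 0.22. Their mean was -0.16 ± 0.54 (SD, n = 2 probes), so the sign of the gene depended on the probe. The array's annotation lists the accession of ACTG1 as a second target of the probe at base 320. Without probes that share a run of at least 16 bases with a probe of another gene, which removes the one at base 320, ACTB stood at 0.22. The only measured probe of ACTG2 shares 17 bases with that ACTB probe and is removed as well. Of the 4 conventional actins then left, 3 were above 0 and 1 below.

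ACTG1, the cytoplasmic gamma-actin, was measured by 1 of its 6 probes, at 31.6 and 52.4, a difference of -0.40 with an error of 0.34. A second ACTG1 probe was above background on the low-fertile array only, at 50.2 against 19.8, at least 1.77-fold lower on the high-fertile array. ACTG2, the gamma-actin of smooth muscle, read 38.5 and 64.1, a difference of -0.41 with an error of 0.33, and the annotation lists the accession of ACTC1 as a second target of this probe. ACTA1, the actin of skeletal muscle, had 1 of 4 probes above background, on the high-fertile array, at 26.9 against 27.6. After scaling the bound was 1.11-fold higher there, but the probe's difference of 0.29 lay within its error of 0.45.

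Muscle actins in a sperm sample were set beside other muscle genes. Of 18 muscle markers on the array, 5 were measured on both arrays, with a median difference of 0.30 (range -0.06 to 0.61), and their signals summed to 296.0 against 263.6 on the low-fertile array, scaled to the high-fertile one. The 5 were the smooth muscle genes MYH11 (0.61) and TAGLN (0.33), the heart and slow muscle myosin MYH7 (0.30), desmin (DES, 0.01) and creatine kinase CKM (-0.06). On the dimmer array MYH11, TAGLN and MYH7 stood near background, at 1.25, 1.76 and 1.45 times the lowest measured signal. DES and CKM, the brighter markers at 3.14 and 3.29 times, were those close to 0. The muscle markers CNN1, MYL9, LMOD1, TNNT2, TNNI3, MYL2, MYL1, TNNC2, MYH1, MYH2 and NEB were detected on neither array. Of the 18, 7 had a probe well above background on the high-fertile array and 5 on the low-fertile array. The part of muscle RNA in the actin values was not tested.

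Profilins bind single actin molecules and feed them to growing filaments. PFN3, a testis profilin, read 154.0 ± 16.5 on the high-fertile array and 436.6 ± 44.6 on the low-fertile array (error of the spot from the scanner software, 1 spot each). The signals differ by more than these errors. The difference was -1.18, or 2.26-fold lower on the high-fertile array, with an error of 0.21, and PFN3 ranked 162nd from the lowest of all 11619 genes. A second PFN3 probe, designed on an expressed sequence tag, read 7.0 and 6.1 and stayed near background on both. Its annotated position is 430 bases away on the opposite strand. With no filter on dim probes, the 2 probes average to -0.33, and after normexp correction the first probe gave -0.80, both short of 2-fold. Of the 8 spots around the first probe's own, 0 were at least 2-fold lower and 1 was at least 2-fold higher.

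PFN1, the general profilin, was the most evenly measured of the genes with 3 probes. Its probes read 27.1, 89.8 and 79.1 on the high-fertile array and 36.1, 114.8 and 91.7 on the low-fertile array, and each pair stood in nearly the ratio of the 75th percentiles. The difference was -0.00 ± 0.10 (SD, n = 3 probes), whereas ACTR3, also with 3 probes, had an SD of 0.71. PFN2, the profilin best known from brain, read 36.6 and 48.8, a difference of -0.09. PFN4, the other testis profilin, was not well above background. Of the 3 measured profilins, PFN3 alone was below 0 under every scaling. PFN1 and PFN2 lay below 0 with the percentile and spike-in scalings and above 0 after quantile normalisation and with the 75th percentile of all probes. Scaling to the median of detected probes put PFN1 above and PFN2 below 0.

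**Figure D3:**
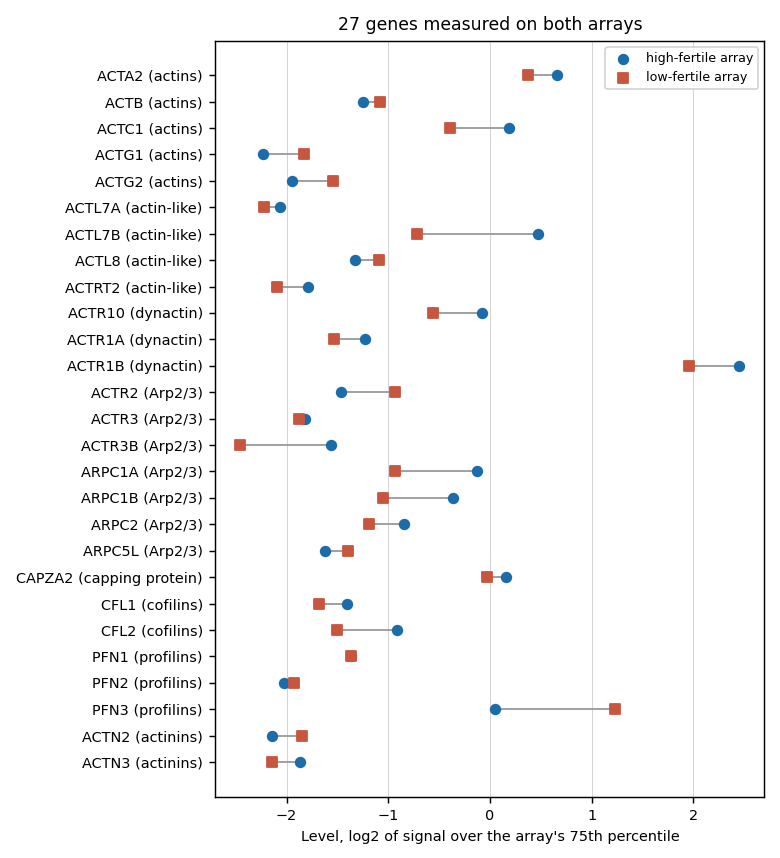
Level of each of the 27 genes on the high-fertile (circles) and the low-fertile array (squares), as log2 of signal over the array's 75th percentile, ordered by role. The line between the symbols is the difference; levels of different genes come from different probes and are not comparable. The lines of ACTL7B and PFN3 exceed 1, in opposite directions.

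The Arp2/3 complex nucleates branched actin networks; ACTR2 and ACTR3 form its actin-like core and the ARPC proteins hold it together. Of its 10 genes, counting the alternative subunits, 7 were measured, 5 above 0 and 2 below, with a median difference of 0.35 and none past 2-fold. Spike-in scaling left 3 above 0, namely ACTR3B, ARPC1A and ARPC1B. ARPC1A and ARPC1B are alternative versions of one subunit. ARPC1A read 136.1 on the high-fertile array and 97.5 on the low-fertile one, and differed by 0.81 with an error of 0.23. ARPC1B had probes reading 292.7 and 45.5 on the high-fertile array and 237.4 and 33.9 on the low-fertile array, which gave 0.63 and 0.75. Its mean was 0.69 ± 0.09 (SD, n = 2 probes), so both probes lay on the same side and close together.

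The core subunits gave no common direction. ACTR2 read 53.7 and 97.7, a difference of -0.54 with an error of 0.27, and a second ACTR2 probe was above background on the low-fertile array only, at 33.2 against 17.6, at least 1.17-fold lower on the high-fertile array. ACTR3 had 3 measured probes at 0.03, -0.63 and 0.79, with signals of 30.6, 36.2 and 67.7 on the high-fertile array and 37.7, 70.1 and 49.1 on the low-fertile one. These probes contradict one another, and their mean of 0.06 ± 0.71 (SD, n = 3 probes) says little about the gene. ACTR3B, which can stand in for ACTR3 in the complex, read 50.3 and 34.0 with 1 probe. It differed by 0.89 with an error of 0.36, and passed 2-fold after quantile normalisation.

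ARPC2, which with ARPC4 forms the structural centre of the complex, had measured probes of 122.8 and 55.9 on the high-fertile array and 115.2 and 57.7 on the low-fertile one, a mean of 0.35 ± 0.10 (SD, n = 2 probes). A further ARPC2 probe, starting at base 550, was above background on the low-fertile array only, at 41.4 against 12.4, and so at least 1.46-fold lower on the high-fertile array. ARPC2 thus had probes on both sides. ARPC5L, an alternative to ARPC5, read 48.4 and 70.9, a difference of -0.22. ARPC3, ARPC4 and ARPC5 were detected on neither array, so the complex was not measured in full.

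The actin-related proteins of dynactin, the complex that links the motor dynein to its cargo, were all measured. Each rested on 1 probe, of 4 for ACTR10 and of 2 for ACTR1A and ACTR1B. None of the other probes was well above background. Those of ACTR10 read 4.6, 4.6 and 5.9 on the high-fertile array, and that of ACTR1B read 22.5 and 10.9. ACTR1B read 814.3 on the high-fertile array and 723.4 on the low-fertile one and differed by 0.50 with an error of 0.20. ACTR10, at the pointed end of dynactin's short filament, read 140.4 and 126.7 and differed by 0.47 with an error of 0.22. ACTR1A read 63.3 and 64.2 and differed by 0.31 with an error of 0.21. Their median was 0.47 with the percentile scaling, and -0.12 with all 3 below 0 after spike-in scaling. Of the 6 dynactin subunits that are not actin-related (DCTN1 to DCTN6), DCTN3 alone was measured on both arrays, at -0.05.

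Cofilins cut and take apart filaments. CFL2, the muscle form, read 79.0 and 65.5 and differed by 0.60 with an error of 0.26. CFL1, the general form, had 2 of 7 probes measured, at 82.7 and 37.9 on the high-fertile array and 103.3 and 32.8 on the low-fertile one. These gave 0.01 and 0.54, a mean of 0.27 ± 0.38 (SD, n = 2 probes). Both genes were below 0 after spike-in scaling, and CFL2 stood at -0.00. Destrin (DSTN), the remaining family member, was not well above background. Of the filament end-capping proteins, CAPZA2 read 165.9 and 182.5, a difference of 0.19 with an error of 0.22. CAPZA1, CAPZB and the sperm form CAPZA3 were not well above background.

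Actinins crosslink filaments. ACTN2 and ACTN3, the muscle actinins, read 33.6 and 51.8 (a difference of -0.30) and 40.8 and 42.3 (a difference of 0.27), each within its error of 0.35 and 0.36. The non-muscle actinins ACTN1 and ACTN4 were not well above background, although ACTN1 had 5 probes. The nuclear actin-related proteins ACTR6 and ACTR8, which belong to chromatin remodelling complexes, and the filament-cutting proteins GSN, SCIN and VIL1 were not well above background either. This limits what the probes could measure and does not show that these RNAs were missing.

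**Figure D4:**
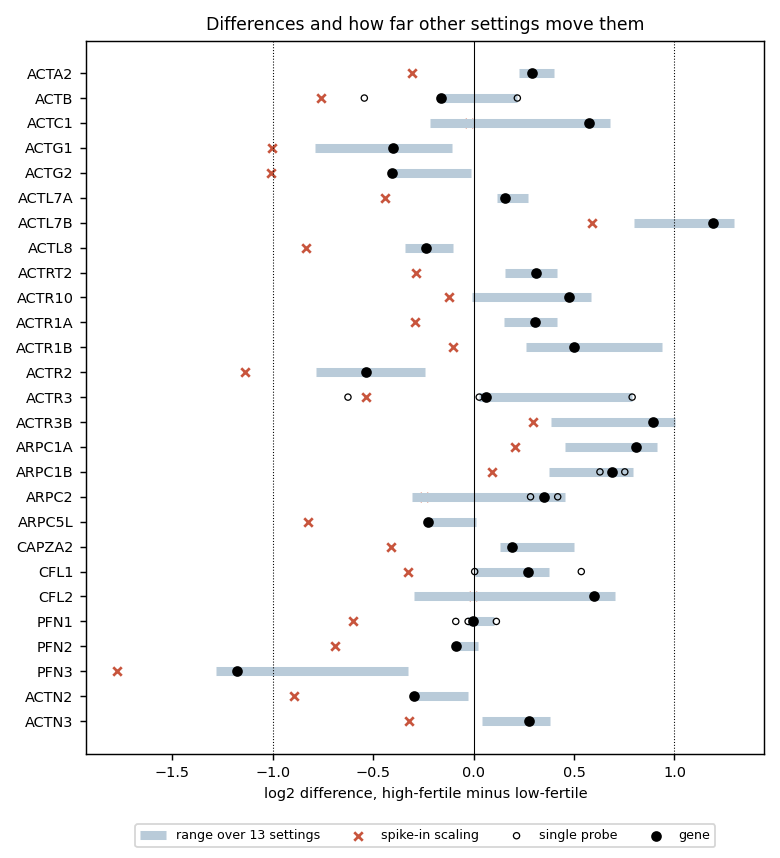
The log2 difference of each of the 27 genes (filled circles), single probes of genes with more than 1 measured probe (open circles), the range over up to 13 other settings (bars), and the value with spike-in scaling (crosses). The dotted lines mark 2-fold. ACTL7B ranges from 0.59 to 1.29 and PFN3 from -1.78 to -0.33, both staying on 1 side of 0.

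Several genes had probes that disagreed. Of the 6 genes with 2 or 3 measured probes, ACTB, ACTR3 and PFN1 had probes on both sides of 0. Over all 1851 genes with at least 2 measured probes, the median SD over probes was 0.25, and the SD was 0.71 for ACTR3, 0.54 for ACTB and 0.38 for CFL1, but 0.10 or less for PFN1, ARPC1B and ARPC2. Of the 35 measured probes, 12 (34.3%), in 11 genes, differed by more than 2 times their error, against 24.3% of all measured probes, 10 of them higher on the high-fertile array and 2 lower.

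Probes were also set out by where they start in their transcript. Of 13 measured probes starting before base 1000, 4 were above 0 and 9 below, with a median of -0.22, and of 22 starting further along, 19 were above 0 and 3 below, with a median of 0.31. The limit of 1000 bases was chosen after the values were seen. Over all measured probes designed on RefSeq transcripts, the corresponding medians were -0.05 (2824 probes, 45.9% above 0) and 0.01 (4632 probes, 51.6% above 0). Spearman's correlation between start and difference was 0.36 over the 35 probes (Pearson's r 0.29). It was 0.06 over the 7456 measured RefSeq probes of the whole array (Pearson's r 0.02). The 35 were not limited to RefSeq in this way: the ACTL8 and ACTR3B probes and a CFL1 probe were designed on other sequences. These are descriptions across probes of the same 2 arrays, with several probes per gene. The labelling started from an oligo-dT primer. Starts are counted from the other end of the transcript and transcript lengths were not used, so a probe's distance from that primer was not measured. RNA length was not measured here, and its part in the pattern was not tested. PFN3, ACTG1, ACTG2, ACTR2 and the ACTB probe at -0.54 all started before base 1000, and ACTL7B started at base 1238. The exceptions before base 1000 were ARPC1B (0.75), ACTR10 (0.47), 1 probe of PFN1 (0.11) and 1 of ACTR3 (0.03), and those further along were another probe of ACTR3 (-0.63), ACTN2 (-0.30) and PFN2 (-0.09).

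**Figure D5:**
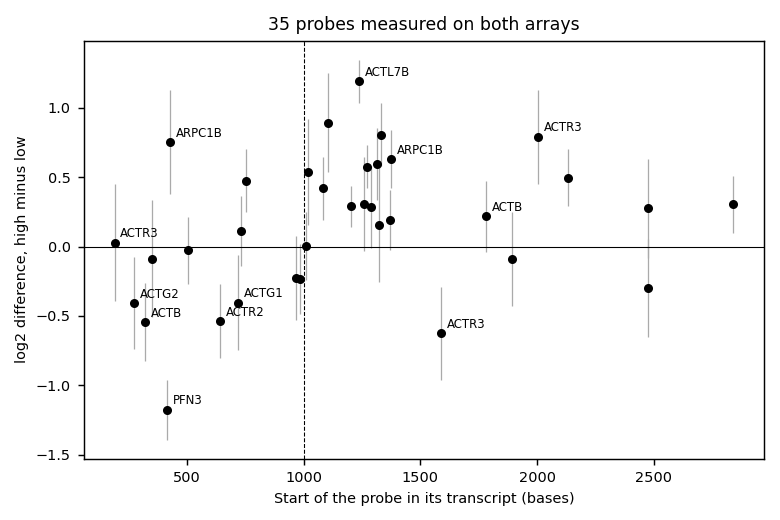
The log2 difference of each of the 35 probes measured on both arrays against the base at which the probe starts in its transcript, with the scanner software's error (vertical lines). The dashed line marks base 1000. To its left 9 of 13 points lie below 0, and to its right 19 of 22 lie above.

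The genes that regulate these proteins were counted from 11 lists of related genes. Of 132 genes, 125 were on the array and 56 were measured on both arrays. None was at least 2-fold higher or lower, against 1.88% and 2.44% of all measured genes. A count of 0 of 56 does not set these genes apart from such small shares. Of the 56, 25 were above 0 and 31 below, and the median was -0.00, the same as that of all genes to 2 decimals. Among activators of Arp2/3, 4 of 8 measured genes were above 0, with WASHC1, an endosomal activator, at 0.72 and WASF3 at -0.80. The Arp2/3 inhibitors and debranchers had 3 measured, all below 0, with a median of -0.06 and the coronin CORO2A at -0.06. Of 6 measured formins and their partners, which nucleate unbranched filaments, 3 were above 0, with SPIRE1 at 0.30 and DIAPH1 at -0.49.

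Kinases, phosphatases and helpers that control cofilin had 4 measured genes and a median of 0.01, with the kinase LIMK2 at 0.10. Thymosin beta-4 (TMSB4X), which holds actin monomers in reserve, read 0.01 ± 0.03 (SD, n = 3 probes). Proteins along the filament's side gave 4 above and 9 below 0 among 13, with filamin C (FLNC) at 0.53 and filamin A (FLNA) at -0.52. The gelsolin relatives VILL and CAPG differed by 0.13 and 0.03. Among partners of the nuclear actin-related proteins, 4 of 6 were above 0, with the helicase RUVBL2 at 0.91 and the remodelling ATPase SMARCA4 at -0.13. Of 11 other genes of the perinuclear theca and the acrosome's attachment, 2 were measured, 1 above and 1 below 0.

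The cells in the samples were looked at through marker lists. Of 15 sperm markers 8 were measured (signals are geometric means over a gene's probes), among them the outer dense fibre gene ODF1 (318.7 and 337.8), OAZ3 (200.8 and 202.6), the protamine PRM1 (81.6 and 218.7, a difference of -1.10) and the transition protein TNP2 (71.1 and 38.2, a difference of 1.22), while PRM2, AKAP4, SMCP, SPATA18, TSSK6 and CABS1 were detected on neither. The sperm list had a median of 0.11 (range -1.10 to 1.22), with TNP2 alone past 2-fold upward and PRM1 alone downward. Leukocyte markers were also detected, with 10 of 14 measured, a median of -0.01 and a range from -0.51 to 0.61. The T cell gene CD3D read 4647 and 7439 with 1 probe (a difference of -0.35), while the markers CD3E and CSF1R were detected on neither array. The common leukocyte antigen PTPRC read 539.1 and 959.9, a difference of -0.51 ± 0.46 (SD, n = 2 probes). The integrin ITGB2 read 76.5 and 62.8, a difference of 0.61 ± 0.51 (SD, n = 4 probes). Lysozyme (LYZ) differed by 0.34 ± 0.88 (SD, n = 2 probes), so its probes disagreed. With the low-fertile array scaled to the high-fertile one, the 10 markers summed to 7898 (high-fertile) and 9180 (low-fertile), and the 9 other than CD3D to 3251 and 3249. Epithelial markers had 5 of 10 measured, with a median of 0.21 (range -0.17 to 0.35), and somatic testis markers 7 of 11, with a median of -0.05. PFN1, ACTB, the Arp2/3 subunits and cofilin are used by somatic cells as well as by spermatids. The part of other cells in their values was not tested.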

How the data were processed

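Total RNA of spermatozoa was labelled with Cy3 from an oligo-dT primer, per the labels' protocols, and each fertility group had 1 array. Both arrays lay on one slide and scan, so neither separates the groups. The deposited scanner tables hold spot intensities, produced by Feature Extraction 11.5.1.1 in 1 colour per the file headers (the processed signal is background-subtracted and detrended). The deposited series matrix holds log2 values. They equalled the log2 processed signals plus one constant per array (-5.12 and -5.55, within 0.01 for 98.6% of probes on each), with column medians of -1.43 and -1.37, and are not centred by gene.

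Control and flagged spots were left out, spots of a probe averaged, and log2 processed signals were reduced by each array's 75th percentile over the 27.6% of probes whose spots were all well above background on both arrays. Genes are means over such probes. A log2 difference of at least 1 (2-fold) was called. The number of arrays limits the precision.

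The members and lists were chosen with earlier results of these data known. Every member is named. One related list, counted in the totals, is not reported here. A further 4 probes, whose RefSeq symbol would match but whose name on the array does not, were left out. Of the related lists described, the largest positive and negative differences are named where the brightest probe stood at 2 or more times the lowest measured signal on both arrays. The alternatives were normexp (offset 50, limma 3.58.1 in R 4.3.3), quantile normalisation, other scalings and filters, the brightest or median probe, the matrix values, spots in patches, grid blocks and 4-fold. Subtracting the trend on GC content and leaving out probes that share 16 bases with another gene's probe were added after seeing the data. Scripts used Python 3.11.15 and pandas 2.3.3, and were tested on simulated data.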

Additional observations from a re-analysis of the deposited data

How the results depend on the processing

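ACTL7B was the 1 gene called higher and PFN3 the 1 called lower. The count of genes at least 2-fold higher was 0 with normexp, with spike-in scaling, with the stricter filter on dim probes (where ACTL7B was not measured) and at 4-fold, and 2 with quantile normalisation, which added ACTR3B. Over the whole array, 72 of 11619 genes were so with normexp, 33 with spike-in scaling and 191 with quantile normalisation, and 125 of 4257 with the stricter filter. The count at least 2-fold lower was 0 with normexp and at 4-fold, 4 with spike-in scaling (PFN3, ACTR2, ACTG1 and ACTG2), and 2 with no filter on dim probes (ARPC3 at -2.22 and CAPZB at -1.22, both not well above background), where PFN3 stood at -0.33. Over the whole array, 48 of 11619 genes were so with normexp, 1788 of 11619 with spike-in scaling and 1752 of 31913 with no filter. Spike-in scaling thus lowered genes across the array, and its 4 calls do not set the actin genes apart. The median difference of the actin genes was -0.33 with spike-in scaling and -0.047 with no filter. With the 75th percentile over all probes, the median of all genes was 0.10. Movement was judged against 0.28, the SD between 2 spots of a probe. Of 357 differences of single genes over 14 alternatives, 310 moved by less and 47 further. Several alternatives could move a value little by construction. The all-probe percentile, the detected median and the matrix values each shift every gene by 1 constant. Choosing among probes leaves genes with 1 measured probe as they were. The called differences, ACTL7B and PFN3, kept their sign, while genes above 0 fell from 17 to 4 with spike-in scaling. With no filter, ACTC1 (-0.22), ARPC2 (-0.31), CFL2 (-0.30) and ACTR10 (-0.01) fell below 0. The name rule could be read to give 37 genes (a digit after every prefix) or 46 (a digit after PFN alone). The causes were not tested. Signals near background limited 17 of the 45 genes. No paired analysis was possible because each group had 1 array and the labels gave no replicate numbers.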
